A study of Rattus norvegicus with 24 samples.

Results

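The baseline expression of the rat frontal cortex was described from the 8 Control libraries, 49 to 56, out of the 24 libraries of a study on inhaled tungsten particles. Each library holds polyadenylated RNA from the frontal cortex of 1 rat, an adult male of the outbred Sprague-Dawley strain, in the group whose concentration of tungsten in the inhaled aerosol is given as 0 mg/m3. The titles of all libraries carry the word Repeat, and what was repeated is not explained. The libraries were chosen by the concentration label alone, and no exposed rat entered any value below. The extraction text of the labels speaks of cell lines, whereas the study's methods speak of tissue, and markers of many brain cell classes were found together in every library. No source used here says which part of the frontal cortex was dissected, or how.

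The frontal cortex is a layered sheet in which glutamatergic projection neurons form the majority of neurons and GABAergic interneurons control them. Astrocytes clear glutamate and hold the water channel of the vessel wall, oligodendrocytes wrap axons in myelin, their precursors persist in the adult, and microglia are the resident immune cells. Below and behind the cortex lie the striatum, whose projection neurons are GABAergic and carry dopamine receptors, the cholinergic neurons of the basal forebrain, and the hypothalamus, which makes the peptide hormones oxytocin and vasopressin. Genes restricted to 1 such class can be read in bulk RNA as a measure of how much of that class's RNA the sample holds. In bulk samples, fewer cells of a type and less RNA per cell cannot be told apart.

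The values are coverage, the mean read depth per base of a gene, summed per reference gene, divided by the sum over all reference genes of the library and multiplied by 1000000 (scaled coverage, in parts per 1000000). This is a value per length, so levels can be compared between genes. Summed coverage was 1668573 to 2822488 (median 1949727), highest in library 51, and the number of sequenced bases implied by the ratio of coverage to FPKM was 5.05 to 7.86 gigabases. Read counts were not in the files used, so counting error is not known. Of 32883 reference genes, 15731 had a mean of at least 1 and were tested, 1431 had a mean of at least 100, and 8363 were listed at 0 in all 8 rats. The 269 genes with the highest means held 50% of all scaled coverage, and 5449 genes held 90%.

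A pair of libraries stood apart from the rest across all genes. On the first principal component (39.5% of the variance) library 56 had a score of 63.7 and library 49 of -42.8, against -13.1 to 4.91 in the other 6 libraries. Library 49 was low in genes that span long stretches of the genome. Its median log2 difference from the median rat was 0.01 for genes under 5 kb, -0.13 from 5 to 20 kb, -0.38 from 20 to 100 kb and -0.61 over 100 kb. In the other libraries these medians lay between -0.18 and 0.09 in every class of span. By a gap ratio (the distance of the extreme library to its neighbour over the whole range), library 49 stood alone at the low end of 2593 of 15731 genes (16.5%), library 56 of 276 (1.75%) and library 51 of 122 (0.776%). Some library stood alone at either end in 21.1% of genes. The cause was not tested. Results that rest on libraries 49 or 56 are given with and without them.

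**Figure D1:**
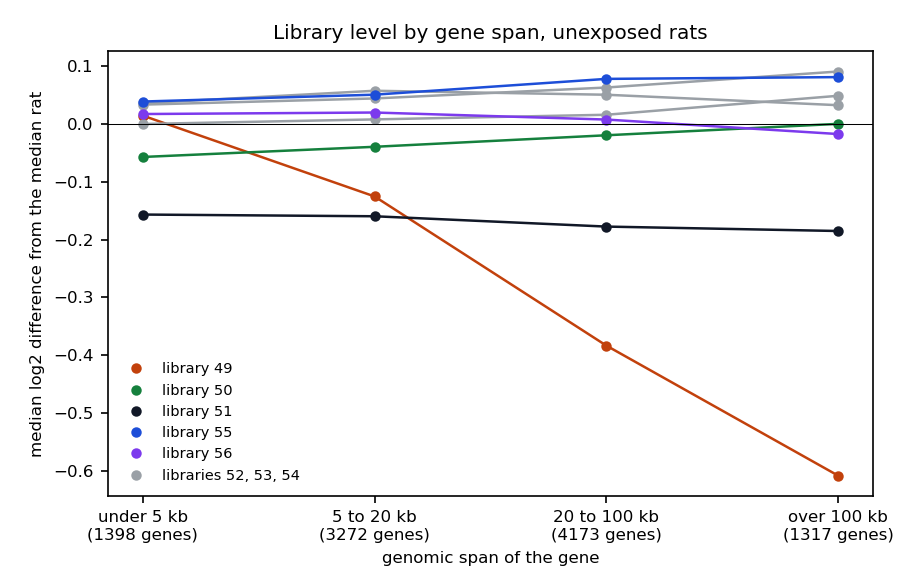
Median log2 difference of each library from the median rat (vertical axis) in 4 classes of genomic span (horizontal axis, with the number of eligible genes with a mean of at least 5). The line of library 49 falls to -0.61 for genes over 100 kb, whereas those of the other 7 libraries stay between -0.18 and 0.09.

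The most abundant reference transcripts were those of the mitochondrial genome, which encodes subunits of the respiratory chain. Genes of this genome held 22.1% to 29.97% of scaled coverage (median 24.4%), with the highest share in library 51. Mt-co1, the catalytic subunit of cytochrome c oxidase, was the highest gene at 33252 ± 3246 parts per 1000000 (SD, n = 8). Mt-nd2 and Mt-nd1, subunits of complex I, had the largest SD on the log2 scale among the 10 most abundant genes, 0.62 and 0.38. Mt-nd2 was at 11286 in the lowest rat, 13878 at the median and 34131 in the highest. Its values of 28535 in library 50 and 34131 in library 51 lay above the 6 others, which reached 15530, and Mt-nd1 was likewise highest in these 2 libraries.

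Among nuclear genes eligible to be named, the 20 most abundant included genes of excitatory neurons, astrocytes and oligodendrocytes beside genes that all cells use. Genes with a clone or repeated name, a span under 200 bases or a same-strand host gene were left out of this ranking. Over all reference genes, Camk2n1, the first of the 20, ranked 29 and Glul, the last, ranked 53. Camk2n1, an inhibitor of the synaptic kinase CaMKII, was at 2918 ± 481 (SD, n = 8). Apoe, the lipid carrier released by astrocytes, was at 2592 ± 244. The ranges of these 2 genes overlap, and their difference was not tested. Camk2n1 was above Apoe in libraries 49 to 54 and below it in libraries 55 and 56. Ptgds, the prostaglandin D synthase of meninges and oligodendrocytes, was at 1938 in the lowest rat, 2221 at the median and 3964 in library 56, well above the next rat at 2510. Mbp, the myelin basic protein, was at 2412 ± 260 and was lowest in library 50 (1812). The remainder of the 20 included Cst3 (cystatin C), Fth1 (ferritin heavy chain), Glul (the glutamine synthetase of astrocytes) and Nrgn. Nrgn, found in dendrites of projection neurons, ran from 1210 in library 55 through a median of 1980.5 to 2422 in library 49. The lowest 2 values of Camk2n1 (2037 and 2360) and of Nrgn (1210 and 1606) were in libraries 55 and 56.

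**Figure D2:**
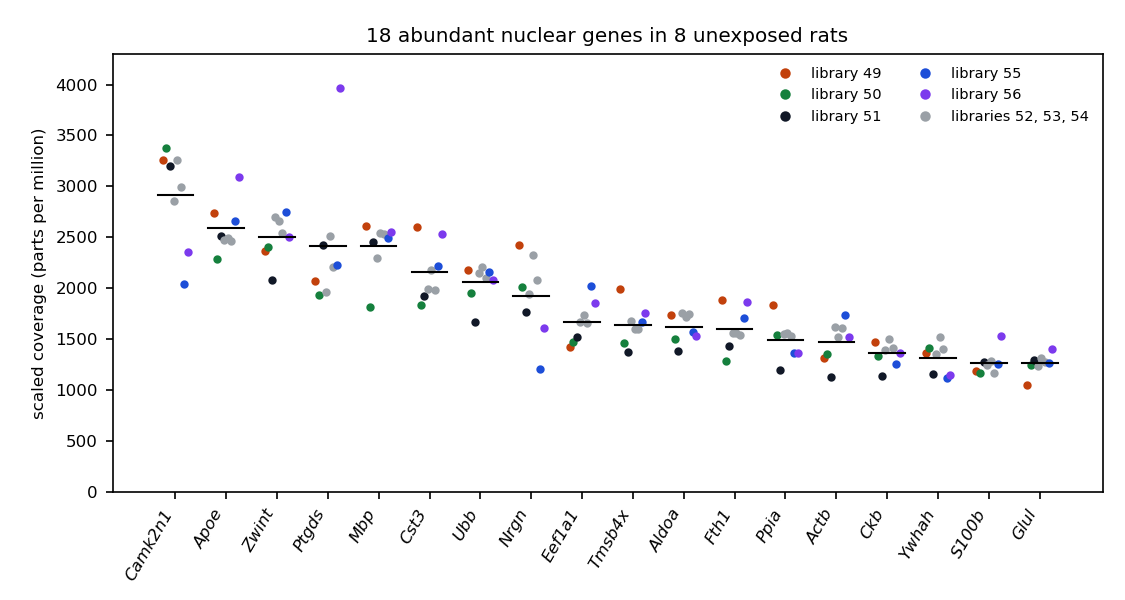
Scaled coverage in parts per 1000000 (vertical axis) of 18 nuclear genes among the 20 eligible ones with the highest mean (horizontal axis), with 1 point per rat and a bar at the mean of 8 rats. Ptgds in library 56, at 3964, is the one value far above its neighbours, and libraries 55 and 56 hold the 2 lowest values of Camk2n1 and Nrgn.

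Spread between rats was taken as the SD of log2(scaled coverage + 1) over the 8 rats, a scale that understates the spread of low genes. Its median over the 15731 genes was 0.23, with quartiles of 0.16 and 0.34. It fell with level, from 0.31 for genes with a mean of 1 to 3 to 0.16 for genes with a mean of at least 100. An SD of at least 0.5 was reached by 1754 genes (11.1%). Without library 49 that count was 1009, and without libraries 49 and 56 it was 578. Of 33 genes with an SD of at least 2, only Oxt and Avp were nuclear genes eligible to be named. In library 56, 9 of the 33 had their highest value, against 17.2% of all genes tested, and 22 their lowest. The share of all genes with their lowest value in library 56 was not counted. Most of the 251 tested genes with an SD of at least 1 span under 200 bases (200 genes). So do 5346 of all 32883 reference genes, and how many of the 15731 tested genes do was not counted. Library 56 held 2.17% of its coverage in genes of that span, against 5.08% to 8.02% in the others.

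The 10 least variable eligible genes with a mean of at least 10 had SDs of 0.04 to 0.06. Nob1, a protein of the small ribosomal subunit's maturation, was at 39.2 in the lowest rat, 41.0 at the median and 43.6 in the highest, an SD of 0.04. Emc2, of the membrane protein complex of the endoplasmic reticulum, and Nudt3, a phosphohydrolase, each had an SD of 0.05. Sparcl1, a matrix protein made by astrocytes, was the most abundant of the 10 least variable genes at 1236 ± 48.4 (SD, n = 8). Of 19 commonly used reference genes that were tested, none reached an SD of 0.5, and their median was 0.16. Their mean log2 value was lowest in library 51, at 7.40 against 7.53 to 7.71 in the others. Library 51 also had the highest mitochondrial share, and the part of that share in this value was not tested.

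Among eligible genes, the hypothalamic hormones had the largest SD. Oxt, the precursor of oxytocin, was listed at 0 in library 53, had a median of 3.73 and reached 113 in library 50. Avp, the precursor of vasopressin, was at 0.258 in library 53, 4.84 at the median and 152 in library 50. The 3 highest values of both genes were in libraries 50, 55 and 56, at 47.0 to 113 for Oxt and 16.1 to 152 for Avp, and the 5 other libraries reached at most 5.81 and 7.81. The SD was 2.77 for Oxt and 2.39 for Avp, and 2.77 and 2.58 without libraries 49 and 56. Pmch and Agrp, hypothalamic genes of appetite peptides, had means of 0.0882 and 0.663, and Hcrt, the orexin precursor, had a mean of 0.475. The pituitary hormone genes Prl and Gh1 were listed at 0 in all 8 rats. Where this RNA came from was not tested.

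Oxt and Avp lie next to each other on chromosome 3 on opposite strands, at 123106694 to 123107534 and 123117492 to 123119460 in the positions of the tables. The 250 bases before each start are shown because these 2 genes had the largest SD of the named genes and were high in the same libraries. They come from RefSeq on the build GRCr8, in the direction of the gene, and capitals mark the motifs searched on both strands. These were the TATA box TATAAA, the nuclear receptor half-site AGGTCA, the half-site TGACGT of the cyclic AMP response element and the E-box CACGTG.
Oxt, chr3:138235504-138235753, plus strand: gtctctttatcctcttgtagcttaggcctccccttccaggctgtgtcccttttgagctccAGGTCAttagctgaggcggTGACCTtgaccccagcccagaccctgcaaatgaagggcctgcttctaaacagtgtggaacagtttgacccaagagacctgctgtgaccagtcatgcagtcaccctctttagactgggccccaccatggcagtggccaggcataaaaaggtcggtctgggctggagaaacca
Avp, chr3:138248523-138248772, minus strand: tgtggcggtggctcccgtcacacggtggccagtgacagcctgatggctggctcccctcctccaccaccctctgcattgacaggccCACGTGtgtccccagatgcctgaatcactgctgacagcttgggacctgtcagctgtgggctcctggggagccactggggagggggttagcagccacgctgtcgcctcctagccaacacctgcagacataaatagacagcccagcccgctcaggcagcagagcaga
The Oxt window holds the nuclear receptor half-site 190 bases before the start and again on the opposite strand from 171 bases before it. The Avp window holds an E-box 165 bases before the start. Of 33469 rat windows of this length, 14.1% hold the nuclear receptor half-site, 5.59% the E-box, 12.9% TATAAA and 6.95% TGACGT. Such matches describe letters only.

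Ttr and Ccn1 came next by SD over all 8 rats. Ttr, which encodes transthyretin, the main product of the choroid plexus, was at 0.554 in the lowest rat, 3.75 at the median and 68.4 in library 49, with 20.8 in library 55. Its SD was 1.76, and 1.17 without library 49. Of 13 choroid plexus genes found, only 5 had a mean of at least 1, and the defining Kl and Folr1 had means of 0.347 and 0.667. Folr1 was highest in library 55 at 2.17, and Kl in library 56 at 0.638. Ccn1, a matrix protein encoded by an immediate early gene of vessels and fibroblasts, was at 1.497 in the lowest rat, 6.49 at the median and 34.7 in library 56, followed by 23.0 in library 54.

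Of the 20 most variable eligible genes, 8 stood apart through library 49 alone. These were Adcy1, Grik3, Mef2d, Anks1b, Psmd14, Rxra, Gabrb2 and Socs7, and their SDs of 0.99 to 1.29 dropped to 0.11 to 0.33 without that library. Mef2d, a transcription factor of activity-dependent neuronal genes, was at 6.11 in library 49 and at 61.0 to 85.4 in the others. Adcy1, a neuronal adenylyl cyclase, was at 7.40 in library 49 and at 72.1 to 130 in the others, with an SD of 1.29 by coverage and 0.66 by the scaled FPKM column. Gabrb2 likewise had an SD of 0.998 by coverage and 0.51 by that column. Slc1a2, the main glutamate transporter of astrocytes, showed the same pattern at 65.0 in library 49 against 349 to 512. Of the 20 most variable genes, 12 were also among the 20 most variable without library 49, and 9 when the FPKM column was scaled to its sum.

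**Figure D3:**
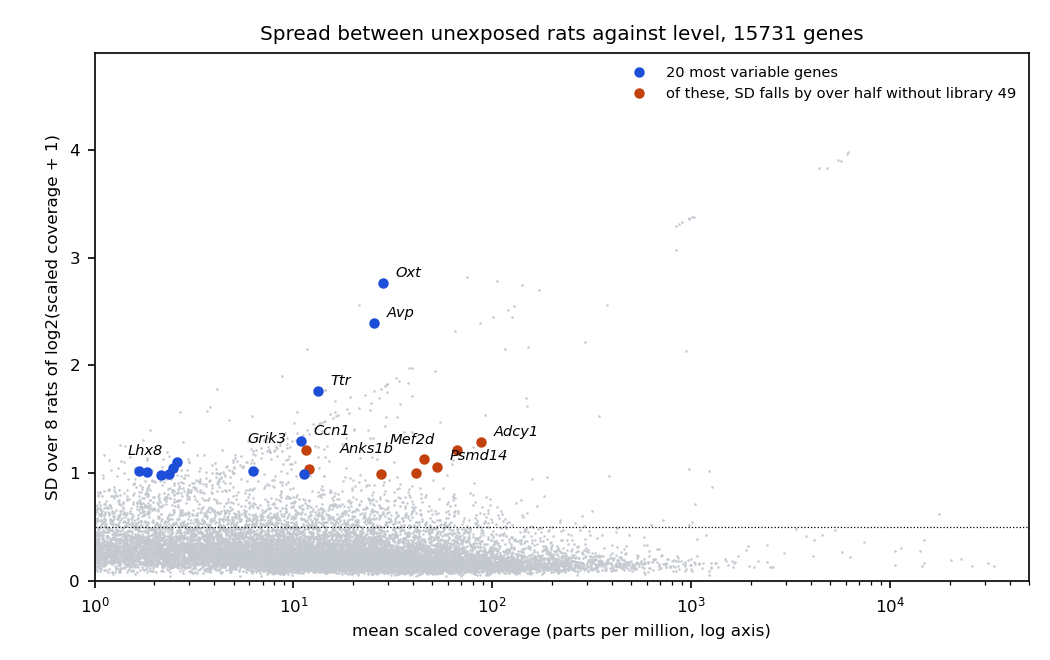
SD over 8 rats of log2(scaled coverage + 1) (vertical axis) against mean scaled coverage (horizontal axis, logarithmic), with 1 grey point per tested gene, the 20 most variable eligible genes coloured and a dotted line at an SD of 0.5. Oxt (2.77) and Avp (2.39) are the highest coloured points, the grey points above them are genes not eligible to be named, and the 8 orange genes lose over 50% of their SD without library 49.

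Markers of all major cell classes were present. Slc17a7, the vesicular glutamate transporter of cortical projection neurons, was at 647 in the lowest rat, 718 at the median and 905 in the highest. Gad1, which makes GABA, was at 50.5, 71.1 and 98.2. The vascular marker Cldn5, a tight junction protein, was listed at 0 in 6 of 8 rats with a mean of 0.0230, so Bsg, the basigin of the vessel wall, stood in for it at 382 to 495. The microglial gene Siglech was listed at 0 in all 8 rats, while Csf1r, the growth factor receptor of microglia, was at 30.9 to 58.3. Because genes that brain cells use can be listed at 0 in these tables, a value of 0 was not read as absence.

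The 18 lists of class markers differed in how much their members varied. The median SD was 0.16 for the reference genes and 0.21 for the myelin genes of oligodendrocytes, and 0 of the 19 oligodendrocyte genes had an SD of 0.5 or more. For astrocytes the median was 0.22 and for microglia 0.25, with 2 of 15 and 0 of 15 members at 0.5. This order rests on libraries 49 and 56, without which the medians were 0.14 for reference genes, 0.23 for oligodendrocytes, 0.12 for astrocytes and 0.22 for microglia. The highest median was that of the striatum list at 0.56, with 13 of 18 members at 0.5 or more, against 11.1% of all genes tested. Without libraries 49 and 56 it was 12 of 18. Immediate early genes had a median of 0.44, with 9 of 28 members at 0.5, or 5 of 28 without those 2 libraries. The list of other brain regions had a median of 0.41, or 0.46 without those 2 libraries, with 7 of 15 members at 0.5 in both cases.

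Some class markers, like genes at large, were far lower in library 49 than in the other rats. It stood alone at the low end in 1 of 11 excitatory neuron genes and 2 of 19 inhibitory neuron genes. The same held for 4 of 15 astrocyte genes and 3 of 11 precursor genes, against 16.5% of all genes. These shares lie on both sides of that of all genes. The part of gene span in the low values of library 49 was not tested. Camk2a, the kinase subunit of excitatory synapses, was at 264 there and at 695 to 867 in the other rats. Tnr and Gpr17, of oligodendrocyte precursors, were at 3.94 and 8.41 there, against at least 21.6 and 24.1. Adarb2, of interneurons derived from the caudal ganglionic eminence, was at 1.22 there, against at least 4.88. Without library 49, the members at an SD of 0.5 or more were 0 of 11 for excitatory neurons, 0 of 15 for astrocytes and 0 of 11 for precursors, where they had been 1, 2 and 2. Inhibitory neurons had 5 of 19, or 3 without library 49 and 2 without libraries 49 and 56. Over all genes tested, the counts in these 3 sets of rats were 1754, 1009 and 578. Zbtb16, a target of the glucocorticoid receptor, was the most variable of 17 stress genes at 6.44 in library 49, 20.3 at the median and 34.6 in library 54. Trh, which encodes thyrotropin-releasing hormone, was at 0.608 in library 51, 4.25 at the median and 6.63 in library 55.

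The striatum list holds genes of medium spiny neurons, the projection neurons of the striatum, some of which cortical neurons also express at lower levels. Rgs9, a brake on dopamine receptor signalling, was at 19.6 in the lowest rat, 36.0 at the median and 63.1 in the highest. Adora2a, the adenosine receptor of neurons of the indirect pathway, was at 10.3, 20.1 and 37.5. Drd1, the dopamine receptor of the direct pathway, was at 12.95, 19.3 and 56.1. Libraries 55 and 56 held the 2 highest values in 12 of the 18 genes (12.8% of all genes tested), and library 51 or 54 the lowest value in 15 (24.2% of all genes tested). The exceptions included Foxp1, a transcription factor also found in cortical neurons, which was highest in library 53, and Pde10a, whose low value in library 49 (11.4) sets its range. On the list of 11 excitatory neuron genes, libraries 55 and 56 held the 2 lowest values in 3 genes (2.26% of all genes tested) and the 2 highest in 1 gene, Arpp21, a neuronal phosphoprotein, at 174 and 157. Library 49 held the lowest value in 5 of the 11. Emx1, a cortical transcription factor and 1 of those 3 genes, was at 8.23 and 9.19 in libraries 55 and 56, while the highest rat was at 15.1.

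With Rgs9 as the measure of each rat, 4 genes of 15730 passed the test and all rose with it (0.0254% of genes tested, limma, adjusted p under 0.05). They were Adora2a, Drd2, Penk and Syndig1l, each of which is on the striatum list. In the positions of the tables, Rgs9 lies on chromosome 10 (97509971 to 97582188), Adora2a on 20 (14265252 to 14282873), Drd2 on 8 (53678777 to 53743642), Penk on 5 (17056419 to 17061837) and Syndig1l on 6 (108393628 to 108415093). Per SD of Rgs9, Adora2a rose by 0.65 ± 0.06 log2 units (SE, limma, adjusted p = 0.0182). Syndig1l, a synaptic membrane protein of striatal neurons, rose by 0.55 ± 0.06 (limma, adjusted p = 0.0182) and was at 10.5, 19.3 and 35.9 in the lowest, median and highest rat. Penk, the enkephalin precursor of the indirect pathway, rose by 0.50 ± 0.05 (limma, adjusted p = 0.0182) and was at 88.2, 147 and 235. Drd2, the dopamine receptor of the same neurons, rose by 0.52 ± 0.06 (limma, adjusted p = 0.0475) and was at 8.59, 15.1 and 24.3. In each of these 4 genes libraries 51 and 54 held the 2 lowest values and libraries 55 and 56 the 2 highest.

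The 250 bases before the start of Rgs9 and of Drd2 are shown because these genes vary together. They come from RefSeq on GRCr8 in the direction of the gene, and no capitals appear because none of the 4 motifs above was found in these windows.
Rgs9, chr10:94770388-94770637, minus strand: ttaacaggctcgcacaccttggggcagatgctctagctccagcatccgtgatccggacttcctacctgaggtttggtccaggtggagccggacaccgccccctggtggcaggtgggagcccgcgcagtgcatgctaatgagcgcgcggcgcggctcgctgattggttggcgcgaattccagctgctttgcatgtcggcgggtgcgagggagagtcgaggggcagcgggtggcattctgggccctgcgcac
Drd2, chr8:58605153-58605402, plus strand: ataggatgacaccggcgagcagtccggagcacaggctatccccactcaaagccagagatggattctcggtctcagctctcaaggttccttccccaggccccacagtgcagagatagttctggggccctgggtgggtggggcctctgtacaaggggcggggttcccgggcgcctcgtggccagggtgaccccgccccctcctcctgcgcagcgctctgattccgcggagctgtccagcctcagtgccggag

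Of the 17 genes of the list other than Rgs9, with the 4 called genes among them, 16 had a slope above 0, against 62.4% of all genes, and 14 had an unadjusted p under 0.05, against 4.2% of all genes. Their median slope was 0.51, against 0.03 over all genes. The exception was Foxp1 (-0.08). Without libraries 49 and 56, 16 of 17 slopes were above 0 and 6 genes passed, 5 of them on the list and the other being Bex4. Leaving out any 1 library from 50 to 56 left 0 genes past the adjusted threshold, with slopes of these 4 genes of 0.44 to 0.70, and coverage without scaling left 0 as well.

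Neuronal lists of other classes held 0 genes that passed with Rgs9. Of 11 excitatory neuron genes, 9 had a slope below 0, against 37.6% of all genes, with a median of -0.13. Only Emx1, with a slope below 0, and Arpp21, with a slope above 0, had an unadjusted p under 0.05 (limma). Of 17 cortical layer genes, 10 had a slope below 0, with a median of -0.01. On that list 3 genes had a slope above 0 with such a p (limma), and 1 had a slope below 0. Of 19 inhibitory neuron genes, 14 had a slope above 0, against 62.4% of all genes, and 7 of these had an unadjusted p under 0.05, against 4.2%. Among the 7 were Gad1, Gad2 and Slc32a1, the vesicular GABA transporter, which striatal projection neurons share with cortical interneurons. Vip, of a class of cortical interneurons, was the only member with a slope below 0 and an unadjusted p under 0.05 (-0.17, SE 0.07), against 1.26% of all genes. Of 8 blood genes, all had a slope above 0 on Rgs9 and 3 an unadjusted p under 0.05, against the same 62.4% and 4.2% of all genes, and their part in the result was not tested.

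Among the most variable genes, 3 described here are known from cholinergic neurons of the basal forebrain. Lhx8, a transcription factor needed for forebrain cholinergic neurons, was at 0.186 in the lowest rat, 1.15 at the median and 8.26 in the highest. Ngfr, a receptor for neurotrophins, was at 0.271, 0.974 and 6.13. Slc10a4, a vesicular protein of cholinergic and monoaminergic neurons, was at 1.44, 5.00 and 14.9. In each of these 3 genes libraries 55 and 56 held the 2 highest values, as in 12.8% of all genes tested. The 3 genes were chosen for a high SD over these same rats. High values in 2 libraries raise both that SD and the mean used as a filter, so this pattern is no separate support. Chat, Slc5a7 and Slc18a3, the enzyme and transporters of acetylcholine, were looked at after their values were seen, and they also were highest in libraries 55 and 56. Chat was at 4.85 and 6.61 there, against 0.845 to 2.27 in the other 6 rats, and Slc5a7 at 11.1 and 11.0, against 1.72 to 3.98.

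**Figure D4:**
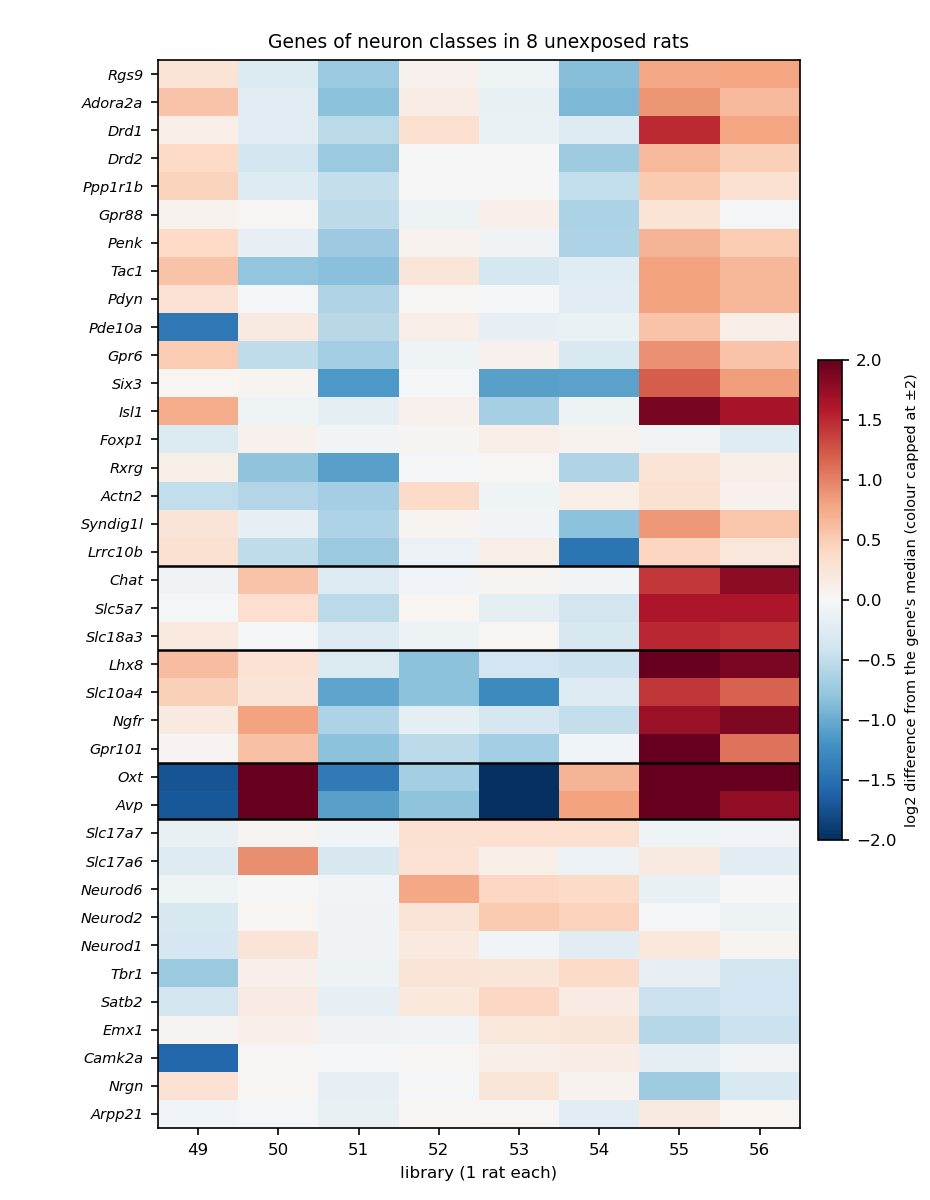
Log2 difference of each gene from its median over 8 rats (colour, capped at 2 in either direction), with 1 column per library and genes in blocks from top to bottom: striatum list, acetylcholine genes, named variable genes, hypothalamic hormones and excitatory neuron list. In the striatum block 12 of 18 genes have their 2 highest values in libraries 55 and 56, as have the acetylcholine genes, Oxt and Avp are highest in libraries 50, 55 and 56, and 3 of 11 genes of the excitatory block, Emx1 and Nrgn among them, have their 2 lowest values in libraries 55 and 56.

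The 3 genes of the olfactory bulb given here were chosen after their values were seen, and all 3 were highest in library 52. Of the 15 tested genes of other brain regions, some library stood alone by the gap ratio in 1, against 21.1% of all genes. Eomes, a transcription factor of olfactory bulb projection neurons, was at 2.43 in library 52 and at most 0.370 in the others. Cdhr1, a cadherin of the same neurons, was at 26.7 in library 52 and at 6.37 to 20.3 elsewhere. Th, the enzyme of dopamine synthesis found in bulb interneurons, was at 5.72 in library 52 and at 1.01 to 2.67 elsewhere. The cerebellar genes Pcp2, Cbln3 and Gabra6 had means of 0.0914, 0.0753 and 0.242.

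Immediate early genes, which neurons and vessels switch on within minutes of stimulation, formed another group. Fos, a subunit of the factor AP-1, was at 23.2 in the lowest rat, 37.5 at the median and 53.0 in the highest. Egr1, a zinc finger factor, was the most abundant of the list at 93.0, 133 and 201, and Arc, which acts at active synapses, was at 57.8, 83.3 and 177. All 3 were highest in library 53 and second in library 52. Klf2 and Klf4, factors of vessel walls, were instead highest in library 56, at 63.2 and 24.1, against at most 26.9 and 13.7 elsewhere.

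With Fos as the measure, limma called 0 genes after adjustment (smallest adjusted p = 0.199) and 668 at an unadjusted p under 0.05, and limma without trend and robust also called 0. All 27 other immediate early genes had a slope above 0, but so did 83.7% of all genes, and 19 of the 27 had an unadjusted p under 0.05, against 4.0% of all genes. Their median slope was 0.32, against 0.07 over all genes. No source used here gives the time of day of sampling. Among 19 clock genes the most variable was Per1 (SD 0.60), which is also an immediate early gene, at 13.2 in library 49 and 52.4 in library 53.

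Haemoglobin and the coverings of the brain were highest in library 56. Hba-a1, an alpha globin, was at 429 in the lowest rat, 551 at the median and 905 in the highest, and Hba-a2 was at 178, 231 and 411. All 8 tested blood genes were highest in library 56, against 17.2% of all genes, and 6 were lowest in library 51 or 54, against 24.2%. Of 17 genes of meninges and fibroblasts, 15 were highest in library 56. This was not particular to blood and meninges. Library 56 was also highest in 10 of 14 endothelial, 10 of 15 astrocyte and 8 of 15 microglial genes. It was highest in 0 of 11 excitatory neuron genes and 0 of 19 oligodendrocyte genes. Igf2, a growth factor of the meninges, was at 33.8, 47.8 and 88.8. With Hba-a2 as the measure, limma called 0 genes (smallest adjusted p = 0.114) and 1021 at an unadjusted p under 0.05, and 0 without trend and robust. Unadjusted, 7 of 7 other blood genes and 13 of 17 meningeal genes had a slope above 0 and a p under 0.05, against 3.62% of all genes. Slopes were above 0 for 66.8% of all genes and below 0 for 33.2%, and 2.87% had a slope below 0 with an unadjusted p under 0.05. Leaving out library 49 or library 55 gave 1 called gene each, with a slope below 0 in both cases. Without library 56, limma called 0 genes and 191 had an unadjusted p under 0.05. Without libraries 49 and 56 these counts were 0 and 441. The counts of list members were made with all 8 rats only.

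The median SD of the oligodendrocyte genes was close to that of all genes with all 8 rats, 0.21 against 0.23, and above it without libraries 49 and 56, 0.23 against 0.16. Mog, a myelin glycoprotein, was at 89.6 in library 50, 117 at the median and 136 in library 55. The median correlation over the 171 pairs of the 19 oligodendrocyte genes was 0.67, against 0.34 over all pairs of 12539 eligible genes, and 0.88 without libraries 49 and 56, against 0.37. For striatal genes the median over 153 pairs was 0.82, and 0.83 without those libraries. Excitatory neuron genes had 0.40 and cortical layer genes 0.19, or 0.65 and 0.38 without those libraries. These are correlations across 8 rats between genes that share libraries and scaling, and they carry no test.

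One index gene per class was compared with every other, 78 pairs of 13 genes. With Pearson's r, 3 pairs passed after Benjamini-Hochberg adjustment, and they joined 3 glial genes. Aqp4, the water channel of astrocytes, was at 93.5 in the lowest rat, 152 at the median and 206 in the highest. Pdgfra, the growth factor receptor of oligodendrocyte precursors, was at 16.6, 29.7 and 40.5, and Csf1r at 30.9, 44.3 and 58.3. All 3 were lowest in library 49, as were 49.2% of all genes tested, and highest in library 56, as were 17.2%. For Aqp4 and Csf1r, r was 0.937 (two-sided exact permutation p = 0.000248, Benjamini-Hochberg 0.00967, n = 8) and rho 0.976 (exact permutation p = 0.000397, Benjamini-Hochberg 0.0310). For Pdgfra and Csf1r, r was 0.898 (exact permutation p = 0.000198, Benjamini-Hochberg 0.00967) and rho 0.929 (exact permutation p = 0.00223, Benjamini-Hochberg 0.0871). For Aqp4 and Pdgfra, r was 0.925 (exact permutation p = 0.000645, Benjamini-Hochberg 0.0168) and rho 0.905 (exact permutation p = 0.00456, Benjamini-Hochberg 0.119).

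The 2 rats farthest from the median of Aqp4 were in libraries 49 and 56. Without them r was 0.865 for Aqp4 and Csf1r, 0.855 for Pdgfra and Csf1r and 0.789 for Aqp4 and Pdgfra. The adjusted p were 0.248, 0.260 and 0.305 (exact permutation tests, n = 6), so these calls were lost. With 6 rats there are far fewer pairings than with 8, so the smallest possible p is larger. The loss of the calls therefore does not show that they rest on these 2 rats. Leaving out library 49, 53 or 55 alone also left 0 pairs past the threshold. Median-of-ratios scaling ended the 3 calls as well, with r of 0.839, 0.780 and 0.845. The next pair was Gad1 and Rgs9 (r = 0.850, exact permutation p = 0.00645, Benjamini-Hochberg 0.126, n = 8), with rho of 0.762 (exact permutation p = 0.0368, Benjamini-Hochberg 0.478) and r of 0.804 without the 2 farthest rats. For Slc17a7 and Ttr, r was -0.765 (exact permutation p = 0.0117, Benjamini-Hochberg 0.182, n = 8), and -0.72 without the 2 farthest rats. For Rgs5, a pericyte gene, and Ttr, r was -0.835 (exact permutation p = 0.0172, Benjamini-Hochberg 0.224) and turned to 0.787 without the 2 farthest rats, so it rests on them.

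**Figure D5:**
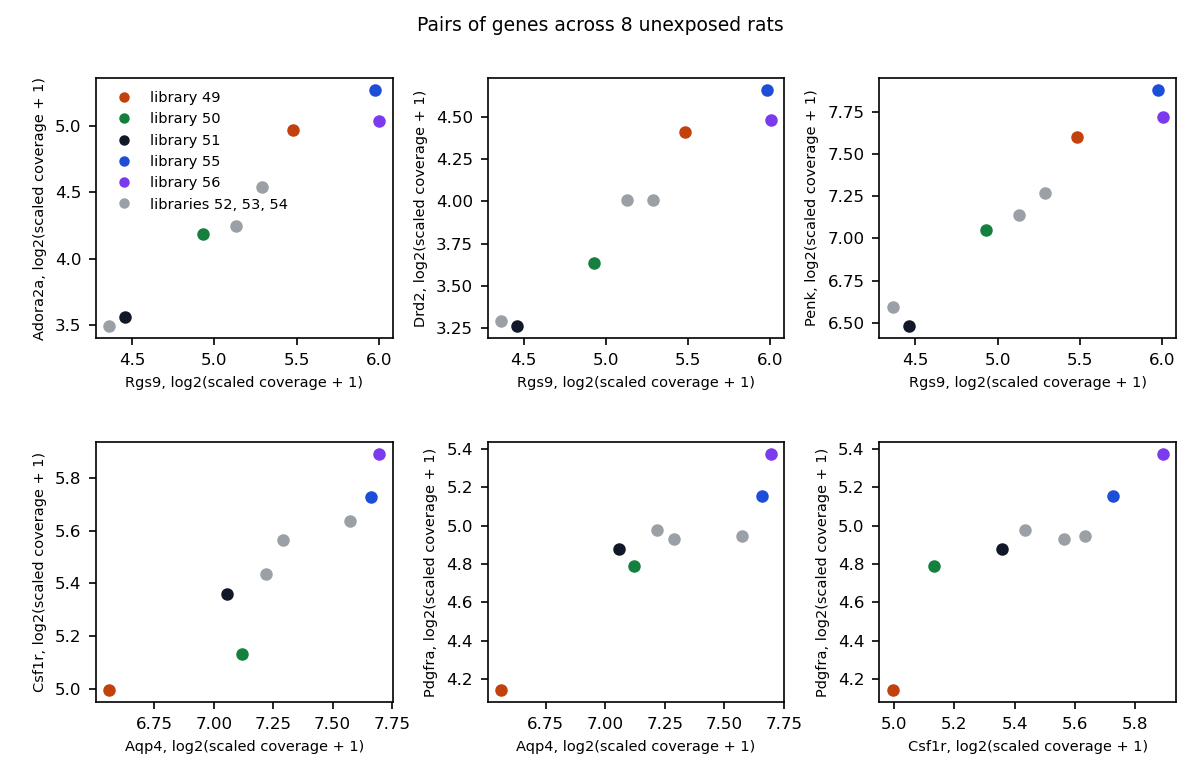
Log2(scaled coverage + 1) of 6 pairs of genes, with 1 point per rat. The top row sets Adora2a, Drd2 and Penk against Rgs9, where libraries 51 and 54 lie at the lower left and libraries 55 and 56 at the upper right, and the bottom row sets Aqp4, Csf1r and Pdgfra against each other, where libraries 49 and 56 lie at the ends.

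The mitochondrial share and summed coverage were put through the same test. Each called 0 genes after adjustment (smallest adjusted p of 0.564 and 0.882, limma), with 1239 and 573 genes at an unadjusted p under 0.05, and 0 without trend and robust. Slopes were below 0 for 84.2% of genes on the mitochondrial share and for 83.5% on summed coverage, and 3.49% of genes had a slope below 0 on summed coverage with an unadjusted p under 0.05, against 0.153% above 0. On the mitochondrial share these figures were 7.66% below 0 and 0.216% above 0. Mitochondrial coverage is part of the sum that divides every value, so a larger share lowers all other genes by construction. Without mitochondrial genes in that sum, 351 genes had an unadjusted p under 0.05 on the share (limma). The median slope was then -0.03, against -0.08. With median-of-ratios scaling, 407 genes on the share and 188 on summed coverage had such a p (limma), with median slopes of -0.006 and -0.0008. The list counts below are from the main scaling. All 18 striatum genes had a slope below 0 on summed coverage, 5 with an unadjusted p under 0.05 (limma). Their median slope was -0.32, against -0.07 over all genes. All 19 reference genes were also below 0 (median -0.08), 5 with such a p. On the mitochondrial share, 12 of 19 oligodendrocyte genes had a slope below 0 and such a p. Summed coverage was highest in library 51 and lowest in library 55. Its part in the Rgs9 result was not tested.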

How the data were processed

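Frontal cortex RNA of 8 Control rats was analysed. Per the labels, the authors used FastQC, Trimmomatic, TopHat2 and StringTie (no source used here gives versions), and they deposited 1 gene table per rat. The deposited coverage is a signal, the depth of reads averaged over the bases of a gene with no correction for library size, and the deposited FPKM is scaled by the authors' StringTie run. FPKM and coverage were in a constant ratio for 77.5% to 77.9% of genes per library (relative tolerance 0.001), so the 2 columns can differ for genes with several transcripts. The labels name mRatBN7.2, but scaffold names of the tables belong to an older assembly, so positions are those of the tables. Loci assembled from reads, the TPM column and the exposed groups were left out. Some named genes are not reported here. Symbols without a match in the tables included Sv2b, Rasgrf2, Ctgf, Cort, Trf, Lhfpl3, Fcrls, Pecam1, Abcb1a, Col1a2, Slco1a5, Hbb-b1, Cyr61, Omp, Gapdh, Mt1a, Mt2a and Hspa1a. The members and gene lists were chosen with earlier results of these data known.

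Coverage of entries sharing an identifier was summed and scaled to 1000000. Genes with a mean of at least 1 were tested on log2(value + 1) with limma 3.58.1 (trend, robust; R 4.3.3), two-sided, and called where the p adjusted after Benjamini and Hochberg was under 0.05. Slopes are per SD of the index gene or library measure. Index gene pairs were tested by exact permutation over 40320 pairings (scipy 1.17.1). Both tests were run on simulated data with independent noise, which lack the library effects seen here. There limma recovered 73 to 86 of 100 genes with a slope of 0.5, and called 8 to 14 unchanged genes per fit. Named genes are the 10 most abundant of any kind, the 20 most abundant nuclear, the 20 most and 10 least variable, genes called in each fit (at most 5 per direction) and index genes. Named nuclear genes had a unique symbol, a span of at least 200 bases and no same-strand host gene. List members named beyond this rule were chosen after their values were seen. Figures were drawn with matplotlib 3.10.9. Each rat is 1 library, so p-values measure the spread between rats and between library preparations together, which cannot be told apart. Alternatives covered scaling, the FPKM column, pseudocount, filter, nested genes, limma options and each rat left out.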

Additional observations from a re-analysis of the deposited data

Results flagged for a closer look

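Of 81 values examined (75 named genes and 6 measures of the libraries), 22 had 1 library whose gap to its neighbour was large for 8 rats. Of these, 18 were among the 75 named genes, against 21.1% of all genes tested, and 20 of the named genes were chosen for a high SD. The limit is set to about 1 in 20 for independent normal values. These genes share 8 libraries, so 21.1% is the background for the named genes. Library 49 was alone at the low end for 11 of the 75, against 16.5% of all genes: Adcy1 at 7.40, Grik3 at 0.371, Mef2d at 6.11, Anks1b at 4.81, Psmd14 at 6.64, Rxra at 0.911, Gabrb2 at 6.11, Socs7 at 3.68, Rgs5 (a pericyte gene) at 13.3, Pdgfra at 16.6 and Glul at 1054 parts per 1000000. Rgs5 was at 31.5 to 38.4 in the other rats, and its SD of 0.50 was 0.10 without library 49.

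Library 56 was alone at the high end for Ptgds at 3964, S100b (a calcium-binding protein of astrocytes) at 1534, Fam166a at 10.2 and Emc2 at 62.1. Fam166a reached at most 1.14 in the other rats. The same library had 6991 parts per 1000000 on short minus-strand genes of the mitochondrial genome, against 84.9 to 117 in the others. It also listed 159573 assembled loci, against 46334 to 66427, and 12118 loci with the strand, position and coverage of a reference gene, against 6914 to 7266.

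Library 51 was alone with the highest summed coverage, at 2.82 in units of 1000000 against at most 2.03, the highest Mt-atp8, at 32174, and the lowest Ubb, at 1671. Library 50 was alone with the lowest Mbp, at 1812.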

How the results depend on the processing

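The number of genes with an SD of at least 0.5 (1754) was 2981 without scaling, 681 with the FPKM column as deposited, 2822 with a pseudocount of 0.1, 1030 with a minimum mean of 5, 578 without libraries 49 and 56, and 1009 to 2008 when 1 rat was left out. The cause of each shift was not tested, except that a higher minimum leaves fewer genes. The 4 genes called with Rgs9 were 0 without scaling, 2 with limma without trend and robust and 0 to 6 with 1 rat left out, while all 4 slopes kept their sign under the 20 alternatives. Calls on Hba-a2 were 0 to 1 with 1 rat left out. Without libraries 49 and 56, summed coverage gave 1 call. The 3 pairs called by r were 0 without scaling, with median-of-ratios scaling, with the FPKM column, with the sum of eligible nuclear genes and without libraries 49 and 56, and 0 to 4 with 1 rat left out. The 1 pair called by rho was 0 without scaling and without libraries 49 and 56. That count was 2 with median-of-ratios scaling and with the FPKM column, and 0 to 1 with 1 rat left out. With fewer rats the smallest possible p is larger. A loss of calls alone therefore does not show that they rest on the rats left out. The sum of eligible nuclear genes, the scaled FPKM column and the fits without libraries 49 and 56 were chosen after seeing the data. No paired analysis was possible because a single group was used. With 8 rats and no read counts, low genes are the least certain.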
